A study of Rattus norvegicus with 9 samples.

Results

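A set of 10 heat shock and chaperone genes was followed in the rat hippocampus, chosen by symbol from the deposited table: Hspa1b, Hspa8, Hspa5, Hsp90aa1, Hspb1, Hsph1, Hspd1, Hspe1, Dnajb1 and Bag3. All 10 symbols were found among the 21138 genes of the table, each in 1 row, and all 10 were among the 15099 genes that passed the filter on low values and were tested. The 9 libraries fall into 3 groups of 3, all from wild type male Sprague-Dawley rats bought at 6 months of age and labelled day 56. INS + VD rats had both common carotid arteries ligated, a model of vascular dementia through lowered blood flow to the forebrain, and received intranasal insulin daily. VD rats had the same ligation and received normal saline. CK rats had no surgery and are labelled as given saline, and the study's sham-operated group was not analysed here, so surgery and reduced blood flow cannot be told apart in VD vs. CK. All groups are described as having been tested in a water maze and anesthetised with pentobarbital before tissue collection. The replicates are described as biological, and whether each came from a single rat is not given in the sources used here.

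Heat shock proteins are chaperones that bind unfolded proteins and help them fold, refold or be degraded. In the cytosol HSP70 proteins work in a cycle in which J-domain proteins deliver the client and nucleotide exchange factors release it, HSP90 takes over late folding steps, and small heat shock proteins hold unfolded proteins until HSP70 can act. Transcription of the inducible genes is driven by heat shock factor 1 (HSF1), which binds repeats of the unit nGAAn in their promoters, whereas chaperones of the endoplasmic reticulum (ER) are controlled by the unfolded protein response through the ER stress element. In the brain, ischemia is a known inducer of the HSP70 gene, and the constitutive HSC70 and HSP90 are abundant in neurons.

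The promoter stretches that hold these binding motifs are shown for 7 of the genes because they separate the genes with heat shock elements from Hspa5. Of the 10 genes, 8 matched the RefSeq promoter table (build GRCr8), and Hspa1b and Hsp90aa1 had no entry under these symbols. The 250 bases before each gene's start were searched on both strands for GAANNTTC and TTCNNGAA, the 2 arrangements of a pair of heat shock units, for the 3-unit form, GAA, TTC and GAA with 2 bases of any kind between neighbours, which contains both pairs, and for the ER stress element, CCAAT and CCACG with 9 bases of any kind between them. Capitals mark the motifs, overlapping ones as 1 run, and each sequence is on the gene's own strand in GRCr8. The gene positions given further on are those of the deposited table, whose build is not named, and Hsph1 and Dnajb1 are on opposite strands in the 2 sources.

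Hspa8 (chr8:50080286-50080486, plus strand): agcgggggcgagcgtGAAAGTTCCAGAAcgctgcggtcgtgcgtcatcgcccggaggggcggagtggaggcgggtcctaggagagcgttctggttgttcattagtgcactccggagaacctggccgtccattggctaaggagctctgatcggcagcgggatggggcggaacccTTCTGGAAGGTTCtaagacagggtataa
Hsph1 (chr12:10427248-10427359, plus strand): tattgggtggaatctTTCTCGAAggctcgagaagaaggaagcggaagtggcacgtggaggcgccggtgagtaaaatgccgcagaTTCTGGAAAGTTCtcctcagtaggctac
Dnajb1 (chr19:41431142-41431167, minus strand): gcatcgggaggggcgGAAGGTTCtgg
Bag3 (chr1:192533313-192533350, plus strand): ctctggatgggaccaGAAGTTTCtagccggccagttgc
Hspb1 (chr12:26432388-26432445, minus strand): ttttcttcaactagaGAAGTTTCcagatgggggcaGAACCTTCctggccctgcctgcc
Hspd1 (chr9:64084247-64084287, minus strand): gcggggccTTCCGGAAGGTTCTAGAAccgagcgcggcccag
Hspa5 (chr3:38452958-38453006, plus strand): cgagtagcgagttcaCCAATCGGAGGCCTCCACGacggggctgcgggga

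At least 1 pair of heat shock units was found before Hspa8, Hsph1, Dnajb1, Bag3, Hspb1, Hspd1 and Hspe1, and either pair occurs in 13.5% of the 33469 promoters of the same length. Hspa8 and Hspd1 each held the 3-unit form 2 times and Hsph1 held it 1 time, against 0.663% of all promoters with any. Hspe1, which lies head to head with Hspd1, shares the Hspd1 stretch on the opposite strand, so these 2 genes carry the same motif. The Hspa5 window held no pair of heat shock units but had the ER stress element, which is present in 0.0657% of promoters. A match is a run of letters and not a measured binding site.

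Levels are given as FPKM, fragments scaled to the length of the transcript and to the mapped fragments of the library, so levels of different genes can be set beside each other. Hspa8 was the most abundant of the genes (610 to 1115 FPKM over the 9 libraries), and Hspa1b the least (0.372 to 18.3 FPKM). Group differences were tested with limma on log2(FPKM + 1), on which the change of genes near 1 FPKM is understated. A gene was called when |log2 fold change| was at least 1 and the p-value adjusted over all 15099 genes was at most 0.05, and a second, nominal call took the same fold change with an unadjusted p of at most 0.05. No gene of the table passed the adjusted call in any comparison (limma, 0 of 15099). At the nominal call INS + VD vs. VD had 549 genes higher and 383 lower, VD vs. CK had 588 higher and 738 lower, and INS + VD vs. CK had 96 higher and 46 lower. Every call below is nominal.

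Facts of the libraries touch all the values. The FPKM values of all tested genes were whole multiples of the value of 1 fragment (100% of 15099 genes, within 0.05 fragments), from which a depth of 16536700 to 18303100 mapped fragments per library was recovered. VD replicate 1 was separated from all others by the first principal component (44.6% of the variance), was at 0 for 1692 tested genes against 115 to 326 elsewhere, and was lower than the other libraries for long transcripts (median log2 difference −0.709 for the longest quartile) and higher for short ones (0.547 for the shortest quartile). The second component (21.1%) set INS + VD replicate 2, VD replicate 2 and CK replicate 3 apart. The summed FPKM of 6 cerebellar markers was 3050 in CK replicate 3 and at most 159 in the other libraries, that of 5 hindbrain markers was 93 in VD replicate 2 and at most 7.32 elsewhere, and that of 6 choroid plexus markers was 1700 in INS + VD replicate 1 and at most 20.6 elsewhere. The sum of 7 olfactory bulb markers was 238 and 522 in VD replicates 1 and 3, 131 in INS + VD replicate 2 and at most 18.7 in the other 6 libraries. In INS + VD replicate 2 it was almost all Th (122 FPKM), with every other marker at 4.44 FPKM (Trh) or less. Doc2g and Trh were called in both comparisons with VD, lower in INS + VD vs. VD and higher for VD vs. CK. The part of such tissue in the results below was not tested. Markers of hippocampal neurons were detected in every library, but 4 of 9 were at 0 in VD replicate 1 and their sum was only 45.4 and 28 FPKM in INS + VD replicate 2 and VD replicate 2, against 88.2 to 267 FPKM in the other libraries. In INS + VD replicate 2 the low sum came from Wfs1, Neurod6 and Neurod2. In VD replicate 2 Wfs1 was 4.59 FPKM, against 84 and 66.4 FPKM in VD replicates 1 and 3. Neurod6 was 35, 3.49 and 2.65 FPKM in VD replicates 1 to 3. Neurod2 was low in all VD libraries (2.36, 5.07 and 3.99 FPKM) and called lower in VD vs. CK (−3.74, unadjusted p = 0.00373, limma). C1ql2 was not low in INS + VD replicate 2 and VD replicate 2 (30.8 and 11 FPKM, against 2.12 to 12.7 FPKM elsewhere). In bulk tissue, fewer cells of a type and less RNA per cell cannot be told apart.

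Hspa1b, the stress-inducible cytosolic HSP70, was higher in INS + VD than in VD. Its level was 2.72, 18.3 and 7.72 FPKM in INS + VD replicates 1 to 3, 1.28, 0.854 and 1.45 in those of VD, and 0.521, 0.372 and 0.788 in those of CK. All 3 INS + VD libraries stood above all 3 VD libraries, and these in turn stood above all 3 CK libraries. The INS + VD mean of 9.58 ± 7.96 FPKM (SD, n = 3) was 8.02 times the VD mean of 1.19 ± 0.306 FPKM, a log2 fold change of 1.97 (SE 0.52, unadjusted p = 0.00402, adjusted p = 0.512, limma). INS + VD vs. CK gave 2.46 (unadjusted p = 9.85e-04, adjusted p = 1, limma), whereas VD vs. CK gave 0.49 (95% interval −0.68 to 1.66), which was not called although the groups did not overlap.

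The INS + VD levels of Hspa1b were spread widely, with the highest library 6.72 times the lowest. Without INS + VD replicate 2 the log2 fold change against VD was 1.39 (unadjusted p = 0.00841, limma), and with the libraries weighted by their fit it was 1.51 and no longer called (unadjusted p = 0.0529, limma). The values rested on 116, 823 and 334 fragments in INS + VD, 52, 38 and 62 in VD and 23, 16 and 33 in CK. The 16 fragments of CK replicate 2 have a 95% Poisson interval of 9.15 to 26 and the 116 of INS + VD replicate 1 one of 95.9 to 139, which cover counting error only. The row is listed on chromosome 20 at 4877324 to 4879779 (minus strand), and its Entrez number, 24472, belongs in RefSeq to Hspa1a, a near-identical neighbouring copy, so the value may hold reads of either copy. Hspa1a had no row under its own symbol. Hspa1l, a testis-enriched gene of the same cluster, was at 1.46, 2.09 and 1.65 FPKM in INS + VD, 1.01, 0.299 and 0.907 in VD and 1.32, 1.16 and 1.37 in CK, a log2 fold change of 0.67 for INS + VD vs. VD (unadjusted p = 0.025, limma) that missed the fold change of the call.

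**Figure D1:**
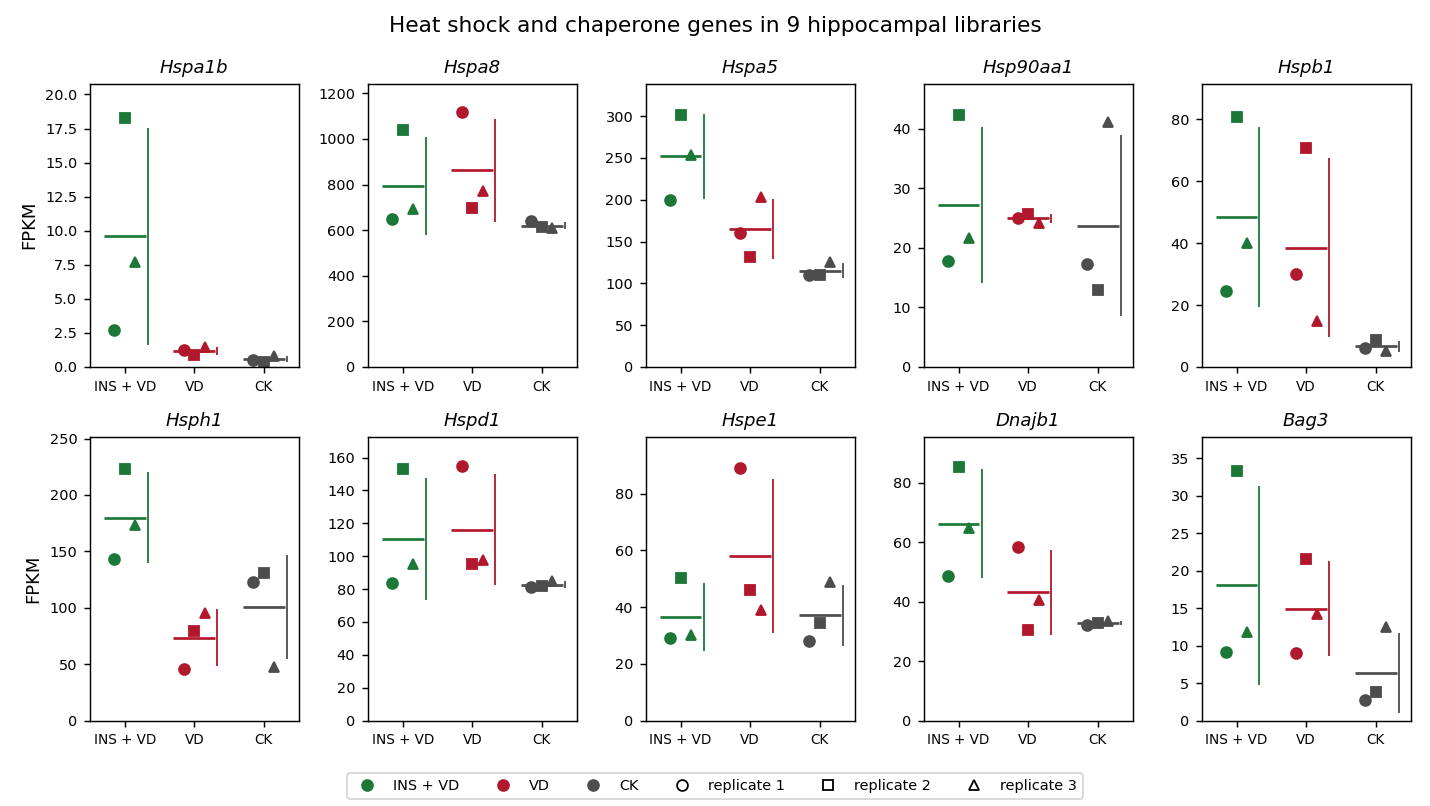
FPKM (linear axis from 0) of the 10 genes in INS + VD, VD and CK, with 1 symbol per library, a horizontal line at the group mean and a vertical line of 1 SD to each side (n = 3), drawn no lower than 0. INS + VD replicate 2 (square) is the highest INS + VD library in all 10 panels, and the CK libraries lie close together for Hspa8, Hspd1 and Dnajb1.

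Hspa8 encodes HSC70, the constitutive HSP70 of the cytosol, which also uncoats clathrin vesicles at synapses. It lies on chromosome 8 at 44990014 to 44993179 (plus strand) and had 650, 1037 and 691 FPKM in INS + VD, 1115, 698 and 770 in VD and 638, 612 and 610 in CK. The CK libraries were nearly equal (coefficient of variation 2.55%), and every VD and every INS + VD library was above them. The log2 fold change was 0.44 for VD vs. CK (unadjusted p = 0.198, limma), 0.32 for INS + VD vs. CK (unadjusted p = 0.339, limma) and −0.12 for INS + VD vs. VD (95% interval −0.84 to 0.60), and none was called. When every library was scaled to the same FPKM total, the last of these was 0.12.

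Set against Hspa8 within each library, Hspa1b amounted to 0.419%, 1.77% and 1.12% of it in INS + VD, 0.115%, 0.122% and 0.188% in VD and 0.0816%, 0.0609% and 0.129% in CK. This ratio does not depend on how a library is scaled, and the INS + VD libraries did not overlap with either other group. The VD and CK libraries overlapped in it.

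Hsph1, which encodes HSP110, a nucleotide exchange factor that lets HSP70 release its client, was also higher in INS + VD than in VD. It had 143, 223 and 173 FPKM in INS + VD, 45.7, 79.5 and 95.5 in VD and 123, 131 and 47.4 in CK (chromosome 12, 6322668 to 6341902, minus strand). All INS + VD libraries were above all libraries of the other groups, and the CK and VD libraries overlapped, with CK replicate 3 close to the lowest VD library. The INS + VD mean was 180 ± 40.5 FPKM and the VD mean 73.6 ± 25.4 FPKM (SD, n = 3 each), a log2 fold change of 1.32 (SE 0.44, unadjusted p = 0.0158, adjusted p = 0.512, limma). The call was lost without VD replicate 1 (1.01, unadjusted p = 0.0512), on leaving out INS + VD replicate 2 (1.15, unadjusted p = 0.0553) and with weighted libraries, where the fold change was too small (0.97). For VD vs. CK the log2 fold change was −0.37 (95% interval −1.38 to 0.63), the only negative one among the 10 genes in that comparison. Hsph1 has a long transcript (3446 bases), just short of the longest quartile of genes, which was low in VD replicate 1.

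Dnajb1 encodes HSP40, the J-domain protein that hands clients to HSP70 and acts in refolding after stress. Its level was 48.5, 85.1 and 64.7 FPKM in INS + VD, 58.5, 30.3 and 40.4 in VD and 32.2, 32.9 and 33.4 in CK (chromosome 19, 24747178 to 24750919, plus strand). The 3 CK libraries differed by a coefficient of variation of 1.86%, and all INS + VD libraries were above them. The log2 fold change of 0.95 for INS + VD vs. CK (unadjusted p = 0.0139, adjusted p = 1, limma) passed the nominal p but fell just short of the fold change of the call. It was 0.62 for INS + VD vs. VD (unadjusted p = 0.0783, limma), where INS + VD replicate 1 lay below VD replicate 1. Relative to Hspa8 in the same library, Dnajb1 amounted to 7.46%, 8.21% and 9.35% in INS + VD, 5.24%, 4.33% and 5.25% in VD and 5.05%, 5.38% and 5.48% in CK. In this ratio the INS + VD libraries lay above all 6 others, and VD and CK overlapped.

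Bag3 encodes a co-chaperone that joins HSP70 to small heat shock proteins and directs clients to autophagy. It had 9.10, 33.3 and 11.8 FPKM in INS + VD, 9.0, 21.6 and 14.2 in VD and 2.70, 3.84 and 12.5 in CK (chromosome 1, 199941161 to 199965191, plus strand). INS + VD and VD overlapped, and CK overlapped with both through CK replicate 3, the library with cerebellar markers. INS + VD vs. CK was called higher (1.40, unadjusted p = 0.0473, adjusted p = 1, limma), and the call was lost without INS + VD replicate 2 (0.87) or 3, VD replicate 2 or 3, or CK replicate 1 or 2. VD vs. CK was not called (1.28, unadjusted p = 0.066, limma) but became so without CK replicate 3 (1.83, unadjusted p = 0.0125, limma), without VD replicate 1 (1.57), on leaving out INS + VD replicate 2 (1.28, unadjusted p = 0.0446), and under 4 other settings. INS + VD vs. VD gave 0.12 (95% interval −1.25 to 1.5), and −0.038 with median centring.

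Hspb1, which encodes the small heat shock protein HSP27 that holds unfolded proteins and stabilises actin filaments, was higher in VD than in CK and likewise higher in INS + VD than in CK. Its level was 24.6, 80.7 and 40.0 FPKM in INS + VD, 30.1, 70.7 and 14.9 in VD and 6.2, 8.71 and 5.20 in CK (chromosome 12, 23839399 to 23841049, minus strand). Each of the 6 libraries from ligated rats exceeded each CK library, and INS + VD and VD overlapped over most of their range. The VD mean of 38.6 ± 28.8 FPKM was 5.75 times the CK mean of 6.70 ± 1.81 FPKM (SD, n = 3 each), a log2 fold change of 2.12 (SE 0.58, unadjusted p = 0.00531, adjusted p = 0.24, limma). The INS + VD mean of 48.4 ± 29.0 FPKM gave 2.54 against CK (unadjusted p = 0.00175, adjusted p = 1, limma). Leaving out any single library kept the VD vs. CK call, with log2 fold changes of 1.55 without VD replicate 2 to 2.64 without VD replicate 3. With 879 bases the transcript belongs to the shortest quartile, which was high in VD replicate 1, and the log2 fold change without that library was 2.16.

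INS + VD vs. VD for Hspb1 was 0.42 with a 95% interval of −0.89 to 1.74, and it was −0.099 without VD replicate 3 and −0.020 when INS + VD replicate 2 was left out. The interval reaches beyond a log2 fold change of 1, so a difference of that size between INS + VD and VD is not excluded. The summed FPKM of 7 astrocyte markers was 1890, 1940 and 1540 in INS + VD, 2540, 3510 and 1710 in VD and 1130, 1580 and 1740 in CK, and that of 8 pericyte and smooth muscle markers was 157, 164 and 116 in INS + VD, 174, 269 and 118 in VD and 115, 147 and 120 in CK. VD replicate 2, the highest VD library for Hspb1, had the highest sum of both lists, and no marker of either was at 0 in any library. Of the astrocyte markers, S100b (2350 FPKM) and Gfap (440 FPKM) were highest there, while Slc1a3 (137 FPKM) was lowest of the 9 libraries. Of the other list, Rgs5 (154 FPKM), Cnn1 and Mylk were highest there. Acta2, Tagln, Myh11 and Des were highest in VD replicate 1, and Pdgfrb in VD replicate 3. The hindbrain markers were highest in VD replicate 2 as well. The part of these cells in the Hspb1 difference was not tested.

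Hspb8 and Cryab, small heat shock proteins that act with Bag3 and Hspb1, stood beside it. Hspb8 had 20.8, 28.9 and 12.3 FPKM in INS + VD, 14.7, 29.6 and 11.1 in VD and 7.37, 8.54 and 3.27 in CK, and was called higher in VD than in CK (1.36, unadjusted p = 0.0188, adjusted p = 0.329, limma) and in INS + VD than in CK (1.56, unadjusted p = 0.00967, limma). Cryab had 60.2, 153 and 28.0 FPKM in INS + VD, 50.6, 88.4 and 27.5 in VD and 15.5, 19.4 and 33.7 in CK. It was called higher in INS + VD than in CK (1.51, unadjusted p = 0.0399, adjusted p = 1, limma) but not in VD than in CK (1.16, unadjusted p = 0.0986, limma), and CK replicate 3 was above the lowest library of both other groups. Cryab is abundant in oligodendrocytes, whose 7 markers summed to 7040, 8430 and 1400 FPKM in INS + VD, 1320, 14900 and 2060 in VD and 4270, 4610 and 5210 in CK, and their part was not tested.

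Hspa5 encodes BiP, the HSP70 of the ER and a main target of the unfolded protein response. Its level was 200, 302 and 254 FPKM in INS + VD, 160, 132 and 203 in VD and 110, 110 and 126 in CK (chromosome 3, 13838304 to 13842762, plus strand). INS + VD and VD libraries were all above the CK libraries, and INS + VD replicate 1 lay just below VD replicate 3. INS + VD vs. CK was called higher, with means of 252 ± 51.3 and 115 ± 9.42 FPKM (SD, n = 3 each) and a log2 fold change of 1.10 (SE 0.27, unadjusted p = 0.00295, adjusted p = 1, limma). Without INS + VD replicate 2 it was 0.96, below the fold change of the call. VD vs. CK gave 0.49 (unadjusted p = 0.106, limma) and INS + VD vs. VD 0.61 (unadjusted p = 0.0532, limma).

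Relative to Hsp90b1, which encodes GRP94, the HSP90 of the same compartment, Hspa5 amounted to 138%, 164% and 159% in INS + VD, 112%, 115% and 118% in VD and 97.6%, 104% and 135% in CK. The INS + VD libraries lay above all others in this ratio. Hsp90b1 itself was at 145, 185 and 160 FPKM in INS + VD, 142, 114 and 173 in VD and 112, 106 and 93.2 in CK, with a log2 fold change of 0.64 for INS + VD vs. CK (unadjusted p = 0.0324, limma) that was not called.

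Hsp90aa1, the stress-inducible HSP90 of the cytosol, had 17.8, 42.2 and 21.6 FPKM in INS + VD, 25, 25.7 and 24.2 in VD and 17.2, 12.9 and 41.1 in CK (chromosome 6, 135107271 to 135112775, minus strand). All groups overlapped, the VD libraries were nearly equal (coefficient of variation 3.13%), and the high values were INS + VD replicate 2 and CK replicate 3. The log2 fold change was 0.24 for VD vs. CK (95% interval −0.78 to 1.26), 0.022 for INS + VD vs. VD (95% interval −1.0 to 1.05) and 0.26 for INS + VD vs. CK (95% interval −0.76 to 1.29), and the INS + VD vs. VD value was negative with median centring (−0.14). Hsp90ab1, the constitutive partner, was far more abundant, at 625, 901 and 788 FPKM in INS + VD, 929, 491 and 653 in VD and 672, 572 and 482 in CK, and no comparison called it.

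Hspd1 and Hspe1 encode HSP60 and HSP10, the chaperonin and its lid in the mitochondrial matrix, and lie head to head on chromosome 9 (61680530 to 61690956, minus strand, and 61692154 to 61694599, plus strand). Hspd1 had 83.5, 153 and 95.3 FPKM in INS + VD, 155, 95.5 and 97.9 in VD and 81.0, 81.8 and 84.9 in CK. All VD libraries were above the CK libraries, which differed by a coefficient of variation of 2.5%, but VD vs. CK was not called (0.45, unadjusted p = 0.18, limma). Hspe1 had 29.1, 50.3 and 30.0 FPKM in INS + VD, 89.0, 46.1 and 38.9 in VD and 27.9, 34.5 and 49.0 in CK, all groups overlapped, and INS + VD vs. VD was −0.61 (95% interval −1.48 to 0.27). The value of VD replicate 1 stood well above the rest, and with 267 bases Hspe1 belongs to the shortest quartile of genes, which was high in that library.

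Although the pair shares a promoter stretch, its ratio was not constant. Hspd1 amounted to 286%, 304% and 318% of Hspe1 in INS + VD, 174%, 207% and 252% in VD and 290%, 237% and 173% in CK. INS + VD lay above VD in every library, and CK overlapped with both.

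**Figure D2:**
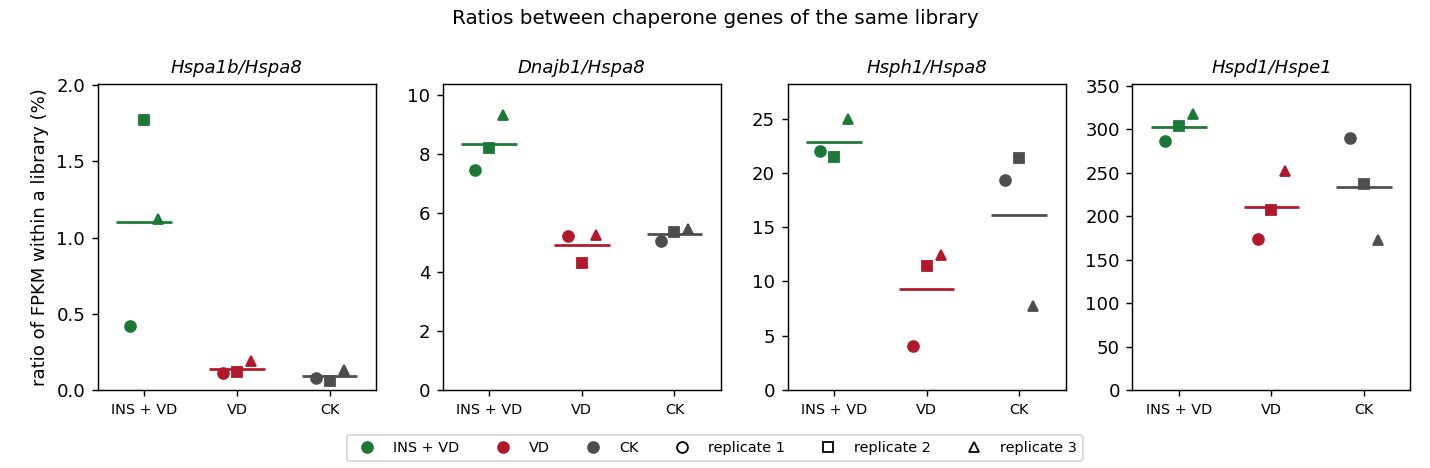
Ratio of the FPKM of 2 genes within each library (percent, linear axes from 0) for Hspa1b, Dnajb1 and Hsph1 against Hspa8 and for Hspd1 against Hspe1, with 1 symbol per library and a line at the group mean. The 3 INS + VD libraries lie above all VD libraries in each of the 4 panels, with Dnajb1 at 7.46% to 9.35% of Hspa8 against 4.33% to 5.25% in VD.

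Taken by comparison, INS + VD vs. VD had 2 of the 10 genes called higher (Hspa1b and Hsph1) and 0 lower, against 3.64% of all tested genes called higher and 2.54% called lower. In VD vs. CK 1 was called higher (Hspb1) and 0 lower, against 3.89% higher and 4.89% lower of all tested genes. In INS + VD vs. CK 4 were called higher (Hspa1b, Hspa5, Hspb1 and Bag3) and 0 lower, against 0.636% higher and 0.305% lower. The first of these has the VD libraries in common with the second and the INS + VD libraries with the third, so they are not independent of each other. The 10 genes were chosen with earlier results of these data known, and some are among those the study picked from these samples. Shares above those of all tested genes can therefore reflect that choice and are no test of the set. Adjusted over all tested genes, limma called 0 of the 10 in each comparison.

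Separation of the groups is a looser measure, and the counts and medians below carry the same limit of choice. The higher group lay wholly above the other for 2 of 10 genes in INS + VD vs. VD (7.57% of all tested genes), for 5 of 10 in VD vs. CK (9.74%) and 6 of 10 in INS + VD vs. CK (5.85%), and the reverse order occurred for 0 of 10 in each (7.6%, 8.27% and 5.27% of all tested genes). With 3 samples against 3 an exact two-sided permutation test of a single gene cannot go below p = 0.1. The median log2 fold change of the 10 genes was 0.27 for INS + VD vs. VD (0.042 over all tested genes), 0.47 for VD vs. CK (−0.020) and 0.95 in INS + VD vs. CK (−0.0019). The log2 fold change was above 0 for 7 of the 10 in INS + VD vs. VD (53% of all tested genes), for 9 in VD vs. CK (48.7%) and also for 9 in INS + VD vs. CK (49.7%). Only the INS + VD vs. VD median changed sign, to −0.18 without INS + VD replicate 2 and to −0.076 with weighted libraries.

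**Figure D3:**
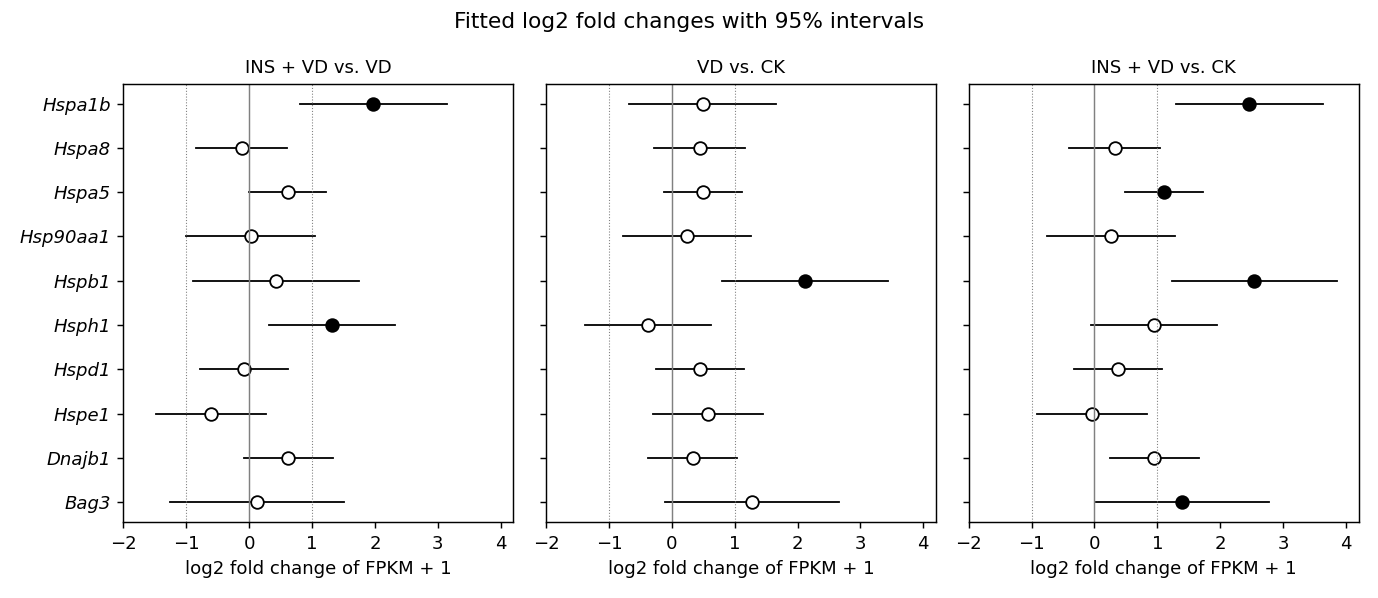
Log2 fold change of FPKM + 1 with its 95% interval from limma for the 10 genes in INS + VD vs. VD, VD vs. CK and INS + VD vs. CK, with dotted lines at −1 and 1 and filled points for genes passing the nominal call. The filled points are Hspa1b and Hsph1 (1.97 and 1.32) on the left, Hspb1 (2.12) in the middle, and Hspa1b, Hspa5, Hspb1 and Bag3 on the right.

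The INS + VD libraries were ranked alike by all of the genes. INS + VD replicate 2 had the highest and INS + VD replicate 1 the lowest level of the group for 10 of 10 genes, while over all tested genes replicate 2 was the highest of its group in 43.6%. The share of all tested genes with replicate 1 as the lowest was not counted. Over all 9 libraries, INS + VD replicate 2 was the highest for 7 of the 10 genes (8.7% of all tested genes), and VD replicate 1 for the other 3, which were Hspa8, Hspd1 and Hspe1. The excess of replicate 2 over the next INS + VD library was smallest for Hspa5 (1.19 times) and largest for Bag3 (2.81 times) and Hspa1b (2.37 times). In the same 3 libraries the summed FPKM of 10 activity-induced genes was 565, 97.6 and 356, so within INS + VD it was lowest where the heat shock genes were highest. It was 1000, 128 and 607 in VD and 626, 719 and 167 in CK. VD replicate 2, with the lowest VD sum, was the highest of its group for 3 of the 10 genes and the lowest for 5. CK replicate 3, with the lowest CK sum, was the highest of its group for 7 and the lowest for 3. The hippocampal neuron sum of INS + VD replicate 2 was low (45.4 FPKM against 139 and 267 FPKM in replicates 1 and 3). This came from Wfs1, Neurod6 and Neurod2 (6.09, 2.08 and 1.92 FPKM). C1ql2 (30.8 FPKM) and Fibcd1 (0.673 FPKM) were instead highest of the 9 libraries there, and Prox1 was 2.14 FPKM against 2.11 and 1.73 in replicates 1 and 3. The part of tissue composition in the high heat shock levels of this library was not tested.

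**Figure D4:**
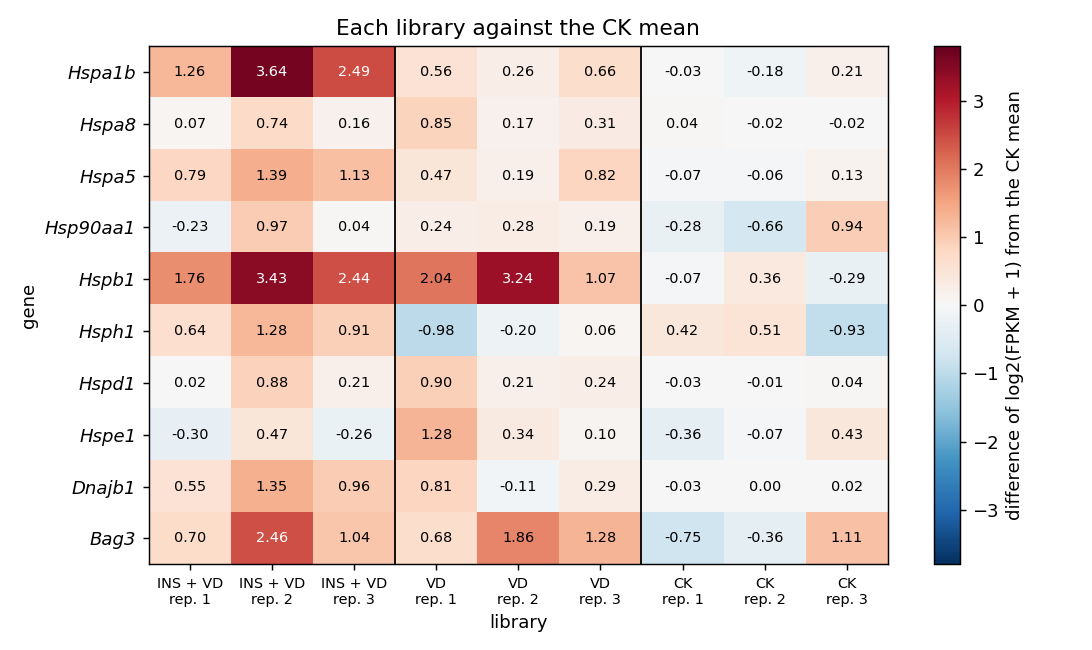
Difference of log2(FPKM + 1) from the CK mean for each of the 10 genes (rows) in each library (columns, INS + VD, VD and CK from left to right), printed in the cells and shaded from blue (lower) to red (higher). The column of INS + VD replicate 2 is above 0 in every row, with 3.64 for Hspa1b and 3.43 for Hspb1, while VD replicates 1 and 2 are below 0 for Hsph1 at −0.98 and −0.20.

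Hsf1, the gene of heat shock factor 1, was at 12.9, 10.1 and 11 FPKM in INS + VD, 12.4, 9.97 and 12.5 in VD and 9.78, 10.7 and 16.1 in CK. The log2 fold changes were −0.036 for INS + VD vs. VD, −0.036 for VD vs. CK and −0.072 in INS + VD vs. CK, and the groups overlapped in all of them. The activity of the protein is not measured by its mRNA.

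Further chaperone genes were counted from lists grouped by role, 92 of 97 of which were tested. In INS + VD vs. VD 5 were called higher and 1 lower with a median of 0.045, in VD vs. CK 5 higher and 5 lower with a median of 0.27, and in INS + VD vs. CK 4 higher and 0 lower with a median of 0.20. As shares of the 92 genes these are 5.43% and 1.09% in INS + VD vs. VD (3.64% and 2.54% of all tested genes), 5.43% each way in VD vs. CK (3.89% and 4.89%) and 4.35% higher in INS + VD vs. CK (0.636%). The shares of the first 2 comparisons lay near those of all genes. The VD libraries enter both of the first comparisons, which are not independent. These lists too were chosen with earlier results of these data known.

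Among the other HSP70 genes (9 tested), Hspa12a, an atypical member, was lower in VD than in CK (−1.30, unadjusted p = 0.0155, limma) and higher in INS + VD than in VD (1.60, unadjusted p = 0.00526, limma). Its levels were 48.6, 40.4 and 56.6 FPKM in INS + VD, 11.3, 26.7 and 11.5 in VD and 57.7, 46.7 and 21.8 in CK, where CK replicate 3 fell into the VD range. Hspa2, known for its part in sperm formation, was higher in VD than in CK (1.8, unadjusted p = 0.00219, adjusted p = 0.202, limma), with 12.3, 10.5 and 25.9 FPKM in INS + VD, 24.8, 28.2 and 32.9 in VD and 11.3, 8.69 and 4.04 in CK. The VD libraries did not overlap with CK. Of the 3 other HSP90 genes none was called in any comparison. Besides the value of Hsp90b1 in INS + VD vs. CK given above, VD vs. CK gave 0.44 for Hsp90b1 (unadjusted p = 0.117, limma) and 0.37 for Trap1, the mitochondrial HSP90 (unadjusted p = 0.25, limma).

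Among the small heat shock proteins (6 tested beside Hspb1), 3 were called higher in VD vs. CK (Hspb8, Hspb2 and Hspb3 with 1.36, 1.20 and 1.06) and 0 lower, against 3.89% and 4.89% of all tested genes, with a list median of 1.11. Hspb2, which is known from muscle, had 4.73, 1.09 and 1.96 FPKM in INS + VD, 10.2, 3.02 and 4.70 in VD and 1.92, 1.77 and 1.60 in CK, so VD was above CK throughout. Hspb3, also a muscle protein, was lower in INS + VD than in VD (−1.38, unadjusted p = 0.00758, limma), at 0.242, 0.153 and 0 FPKM in INS + VD, 3.13, 0.464 and 3.21 in VD and 0.234, 0.240 and 0.821 in CK, levels at which the pseudocount weighs heavily. The meningeal and fibroblast markers, 7 in the table, summed to 944, 669 and 783 FPKM in INS + VD, 5950, 1600 and 2860 in VD and 535, 888 and 425 in CK. Most of each sum was Ptgds (5850 and 2710 FPKM in VD replicates 1 and 3). The sums were highest in VD replicates 1 and 3, as was Hspb3. So was each of Ptgds, Col1a1, Col3a1, Dcn and Slc6a13. Lum was lower in VD replicate 3 (4.04 FPKM) than in VD replicate 2 (4.33 FPKM). Igf2 was lower in VD replicate 1 (25.2 FPKM) than in INS + VD replicate 1 (35.5 FPKM). The sum of the olfactory bulb markers was likewise highest in VD replicates 1 and 3. Their sums were 7.24, 131 (almost all Th) and 8.89 FPKM in INS + VD, 238, 13.8 and 522 in VD and 14.3, 4.58 and 18.7 in CK. The part of either tissue was not tested.

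The J-domain list (16 tested) had 3 genes lower in VD than in CK, Dnajb14 (−1.16), Dnajc16 (−1.37) and Dnajc6 (−1.77), and 0 higher, against 4.89% lower and 3.89% higher over all tested genes. Dnajc6 encodes auxilin, the neuronal partner of HSC70 in clathrin uncoating, and had 71.3, 64.3 and 89.8 FPKM in INS + VD, 7.48, 31.1 and 57.4 in VD and 94.6, 90.0 and 71.9 in CK. The INS + VD and CK libraries were all above the VD libraries, and VD replicate 1 was the lowest. Dnajc6 and Dnajc16 were called higher in INS + VD than in VD (1.58 and 1.34), as was Bag4, a nucleotide exchange factor of the co-chaperone list (1.46, against −1.68 in VD vs. CK). VD replicate 1, the library with the highest number of tested genes at 0, was the lowest of all 9 for Dnajb14, Dnajc6, Dnajc16, Bag4 and Hspa12a. Dnajc16 was 2.01, 7.20 and 15.2 FPKM in VD replicates 1 to 3, and Bag4 was 1.15, 8.94 and 14.6 FPKM. How far these calls rest on VD replicate 1 was not tested.

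Chordc1, an HSP90 co-chaperone induced by HSF1, was called higher in INS + VD than in VD (1.03, unadjusted p = 0.011, adjusted p = 0.512, limma). Its levels were 30.5, 55.7 and 32.8 FPKM in INS + VD, 12.9, 23.6 and 19.8 in VD and 21.4, 23.6 and 20.4 in CK, and the INS + VD libraries stood above all others. It was the 1 call among the 9 heat shock factors and other HSF1 targets tested in that comparison. Of the 8 subunits of the chaperonin TRiC, which folds actin and tubulin, 0 were called in any comparison, and their medians were −0.22 for INS + VD vs. VD, 0.37 for VD vs. CK and 0.19 in INS + VD vs. CK. The smallest p-values there belonged to Cct4 (0.59, unadjusted p = 0.134, limma) and Cct5 (0.52, unadjusted p = 0.135, limma), both in VD vs. CK.

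The ER list (19 tested) had 1 gene called in VD vs. CK, Ddit3, which encodes the ER stress factor CHOP (1.12, unadjusted p = 0.0383, limma). Its levels were 25.2, 31.5 and 24.2 FPKM in INS + VD, 91.9, 25.6 and 30.1 in VD and 13.7, 18.7 and 24.7 in CK, so VD was above CK throughout but close to it in 2 libraries. For INS + VD vs. CK 17 of the 19 genes had a positive log2 fold change, with a list median of 0.50, against 49.7% of all tested genes with a positive one, and for 10 of 19 the INS + VD libraries lay wholly above CK (5.85% of all tested genes). Only Sdf2l1, an ER co-chaperone of BiP, was called there (1.11, unadjusted p = 0.0159, adjusted p = 1, limma). The mitochondrial list (7 tested beside Hspd1 and Hspe1) had 0 calls in any comparison. All 7 were negative in INS + VD vs. VD (median −0.33), where 53% of all tested genes were positive. Timm44, a part of the import motor, was at −0.69 (unadjusted p = 0.0488, limma). In VD vs. CK the smallest p-value was that of Clpp, a matrix protease (0.99, unadjusted p = 0.128, limma). VD replicate 1 was the highest of the 9 libraries for all of these genes but Clpx, with Clpp at 135 FPKM there and at most 33.9 FPKM elsewhere.

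**Figure D5:**
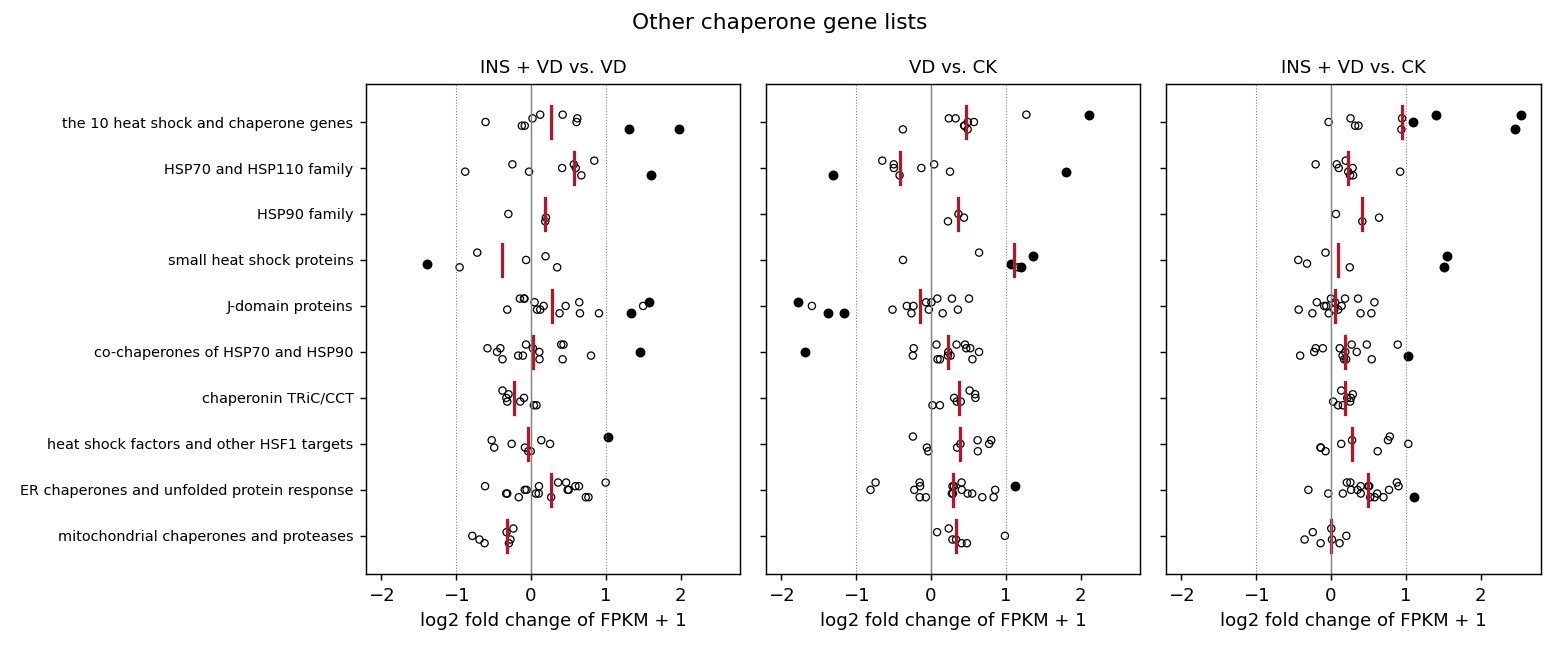
Log2 fold change of FPKM + 1 of every tested gene in the chaperone lists (rows) for INS + VD vs. VD, VD vs. CK and INS + VD vs. CK, 1 point per gene, filled where it passed the nominal call, with a red line at the list median. The red line of the 10 genes lies at 0.27, 0.47 and 0.95 in the 3 panels, and that of the small heat shock proteins at 1.11 in VD vs. CK.

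The genes most like Hspa1b over the 9 libraries by Pearson correlation of log2(FPKM + 1), as a description over libraries that share their groups, were Lhx9 (r = 0.951), Zim1 (r = 0.919), RGD1562726 (r = 0.916), Nhp2 (r = 0.912) and LOC680121 (r = 0.911). Without INS + VD replicate 2 these were 0.878, 0.805, 0.929, 0.886 and 0.892 in the same order. LOC680121 is annotated as similar to the Hspa8 product and had 62.3, 76.7 and 68.3 FPKM in INS + VD, 37.3, 35.3 and 49.1 in VD and 39.3, 35.3 and 32.7 in CK. Its pattern differed from that of Hspa8, with INS + VD libraries above all others, although reads of such copies can be split between them. Nhp2, a small nucleolar ribonucleoprotein gene, had 21.7 and 31.0 FPKM in INS + VD replicates 2 and 3 and at most 2.0 FPKM in the other 7 libraries.

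For Hspa5 the most alike genes were Lhx9 (r = 0.923), LOC680121 (r = 0.922), Hsp90b1 (r = 0.91), Sdc2 (r = 0.909) and AABR07048992.1 (r = 0.895). For Hspb1 they were Cpeb1 (r = 0.958), Tsfm (r = 0.949), Ttc4 (r = 0.927), Hspb8 (r = 0.914) and Cd83 (r = 0.909). Without INS + VD replicate 2 the values ran from 0.846 to 0.974 for Hspa5 and from 0.885 to 0.962 for Hspb1. Among the 10 genes themselves, Hspa8 and Hspd1 ran closest (r = 0.986), followed by Hspa1b with Hspa5 (r = 0.928) and with Dnajb1 (r = 0.903), and Hsph1 ran most opposite to Hspe1 (r = −0.632). These are values over the same 9 libraries, and Hspa1b with Hspa8 reached r = 0.49. Without VD replicate 1, Hspa1b with Hspa8 gave r = 0.797 and Hsph1 with Hspe1 r = −0.367.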

How the data were processed

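Hippocampal RNA of 9 samples (3 each of INS + VD, VD and CK) was analysed from 1 deposited table. The authors' alignment used HISAT2, and the deposited FPKM values, calculated by the authors, carry rat Ensembl identifiers although the submitters' notes name the mouse build GRCm38 (mm10), so gene positions are given as in the table with no build. Labels and methods name different extraction kits. The counting program is not given in the sources used here. No column of other samples was found (0).

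All genes reaching 0.5 FPKM in 3 or more of the 9 libraries were fitted with limma 3.58.1 (R 4.3.3) on log2(FPKM + 1), with the group as the only term and a trend of the prior spread, and p-values were adjusted by Benjamini and Hochberg. Whole fragments were recovered from the FPKM values and used for depth, Poisson intervals and a limma voom alternative. The procedure was tested on simulated data. Figures used matplotlib 3.10.9 in Python 3.11.15. The 10 genes were given by symbol. Of the other lists, genes were named if called in VD vs. CK or INS + VD vs. VD, or else the 2 with the smallest p, with close partners, the 5 most correlated genes of Hspa1b, Hspb1 and Hspa5 and, chosen after their values were seen, Sdf2l1. The genes and lists were chosen with earlier results of these data known, and some are among the genes the study itself picked from these samples. Alternatives changed the pseudocount, filter, scaling, prior, weights, libraries and replicate block.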

Additional observations from a re-analysis of the deposited data

How the results depend on the processing

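Over the alternatives run, 0 of the 10 genes passed the adjusted call. In the fits without a single library, genes of the table passing it numbered 0 to 20 (INS + VD vs. VD) and 0 to 28 (VD vs. CK, both highest without VD replicate 2), and weighted libraries gave 8 in INS + VD vs. CK. Nominal calls over all genes ran from 391 to 2233 (INS + VD vs. VD), 918 to 2557 (VD vs. CK) and from 90 to 246 (INS + VD vs. CK) without single libraries, and INS + VD vs. CK had 234 with a pseudocount of 0.1 and 223 with weighted libraries. Of the 10 genes, 1 to 2, 1 to 2 and 2 to 5 were called in these comparisons without single libraries. Weighted libraries called 0 in INS + VD vs. VD and 2 in VD vs. CK, where median centring also called 2. The median of the 10 genes ran from −0.18 to 0.62, 0.24 to 0.59 and 0.76 to 1.12 without single libraries, and was −0.076 with weighted libraries in INS + VD vs. VD. Removal of INS + VD replicate 2, VD replicate 2 and CK replicate 3 at once, chosen after seeing the data, gave 2 genes at the adjusted call in INS + VD vs. VD and 2 in VD vs. CK, nominal calls of 1513 for INS + VD vs. VD beside 76 for INS + VD vs. CK, 2 of the 10 genes called in VD vs. CK, and a median of 0.57 in INS + VD vs. CK. The cause of these moves was not tested.

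The median of all genes was 0.042, 0.22 with equal sums and −0.12 with median centring in INS + VD vs. VD, and −0.020, −0.19 and 0.16 in VD vs. CK. The share of nominal calls that were higher was 58.9%, 81.4% with equal sums and 44.3% with median centring in INS + VD vs. VD, and 44.3%, 26.6% and 59.2% in VD vs. CK. Signs turned in INS + VD vs. VD for uncalled genes: Hspa8 (0.12) and Hspd1 (0.16) with equal sums; Hsp90aa1 with median centring (−0.14), weights (−0.23) and the 3 libraries out (−0.31); Bag3 under the same settings (−0.038, −0.52 and −0.11); Hspb1 with weights (−0.21). Without single libraries the range was −0.33 to 0.27 for Hsp90aa1, −0.099 to 0.99 for Hspb1, −0.41 to 0.48 for Bag3, −0.33 to 0.080 for Hspa8 and −0.34 to 0.14 for Hspd1. In VD vs. CK it was −0.090 to 0.71 for Hsp90aa1, and in INS + VD vs. CK −0.095 to 0.73 for Hsp90aa1 and −0.28 to 0.18 for Hspe1.

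With the replicate number as a block, 2 genes were called in INS + VD vs. VD, 2 in VD vs. CK (Bag3 joining at unadjusted p = 0.0442, limma) and 4 in INS + VD vs. CK. Libraries of the same number correlated, after removal of group means, at −0.317 to 0.383 and those of different numbers at −0.362 to 0.385. No pairing by number was evident, although so few libraries cannot exclude one.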

Other observations

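Fkbp5, the glucocorticoid-induced co-chaperone of HSP90, was not in the set named by the rule and was picked after its values were seen. It averaged 26.5 ± 6.70 FPKM in INS + VD and 14.8 ± 3.92 FPKM in VD (SD, n = 3 each), with a log2 fold change of 0.80 that was not called (unadjusted p = 0.0605, limma). Against the CK mean of 13 ± 5.07 FPKM it was called higher in INS + VD (1.03, unadjusted p = 0.0223, adjusted p = 1, limma), and the INS + VD libraries did not overlap with either other group.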
